A study of Mus musculus with 4 samples.

Results

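The 8 genes described here encode heat shock chaperones: Hspa1a, Hspa1b, Dnajb1, Hsp90aa1, Hspa8, Hsph1, Hspe1 and Hspd1. They were taken by symbol, all 8 were among the 16308 genes counted, and each was followed across leukocyte classes and the 4 libraries of the series. In monocytes and macrophages (Mφs) of the injured gut muscularis the 8 genes did not move as a block. From 24 h to 72 h post-injury in WT mice the inducible HSP70 genes Hspa1a and Hspa1b went from 63.5 to 177 and from 32.1 to 129 UMIs per 1000000 (CPM), while Hsp90aa1, Hsph1, Hspe1 and Hspd1 were each at least 2-fold lower. In CCR2 KO mice at 72 h Hspa1a stood at 26.5 and Hspa1b at 15.9 CPM, below WT, and Hspd1 was 2.20-fold above WT.

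The series holds single-cell RNA-seq of CD45+ leukocytes sorted from the muscle layer (muscularis) of the small bowel of 12-week-old female mice, C57BL/6J WT or CCR2 KO (Ccr2-/- throughout the body), at 24 h or 72 h after intestinal manipulation, a surgical handling of the gut that inflames its muscle layer. CCR2 is the chemokine receptor that classical monocytes need to leave the bone marrow. Each library pooled cells of several mice, and there was 1 library for each of WT and CCR2 KO at 24 h and of WT and CCR2 KO at 72 h, so no test between groups was possible. Every mouse was manipulated, and no uninjured library was analysed here. All intervals below are 95% intervals that cover counting error only, not the spread between cells, mice or libraries.

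Chaperones bind unfolded stretches of other proteins and release them in cycles of ATP use. HSP70 proteins, made from the constitutive Hspa8 and from the stress-inducible Hspa1a and Hspa1b, work with J-domain partners such as DNAJB1 and with the exchange factor HSPH1. They hand many clients, steroid receptors and kinases among them, to HSP90, whose inducible cytosolic form is Hsp90aa1. Hspd1 (HSP60) and Hspe1 (HSP10) form the folding chamber of the mitochondrial matrix. The transcription factor HSF1, which stress sets free from chaperones, binds inverted repeats of the unit nGAAn in front of many of these genes. Mφs and other leukocytes induce them in heat, fever and inflammation, and the cytosolic forms are also known to answer to handling of cells.

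The promoters are shown because HSF1 sites are what these genes are known to share. RefSeq windows of build GRCm38.p6 were on hand for 6 of the 8 genes (none for Hspa8 and Hsp90aa1), and the 250 bases before each start were searched on both strands for GAANNTTC and TTCNNGAA, the head-to-head and tail-to-tail pairs of the HSF1 unit. Each of these motifs reads the same on both strands. Of 32851 windows of this length, 12.8% held either motif and 1.46% held at least 2 matches. Capitals mark the matches, and each line reads 5′ to 3′ on the strand of its gene.
Hspa1a (chr17:34972157-34972406, minus strand): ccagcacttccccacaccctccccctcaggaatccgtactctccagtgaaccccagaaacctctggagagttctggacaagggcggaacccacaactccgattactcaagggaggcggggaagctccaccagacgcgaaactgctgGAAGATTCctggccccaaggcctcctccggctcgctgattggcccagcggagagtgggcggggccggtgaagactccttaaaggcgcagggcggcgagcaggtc
Hspe1 (chr1:55087898-55088147, plus strand): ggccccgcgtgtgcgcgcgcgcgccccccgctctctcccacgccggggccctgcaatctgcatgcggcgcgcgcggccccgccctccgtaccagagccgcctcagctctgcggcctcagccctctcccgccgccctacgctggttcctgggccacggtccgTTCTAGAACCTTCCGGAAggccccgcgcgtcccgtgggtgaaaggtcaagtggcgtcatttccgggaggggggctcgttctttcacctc
Hsph1 (chr5:149636316-149636565, minus strand): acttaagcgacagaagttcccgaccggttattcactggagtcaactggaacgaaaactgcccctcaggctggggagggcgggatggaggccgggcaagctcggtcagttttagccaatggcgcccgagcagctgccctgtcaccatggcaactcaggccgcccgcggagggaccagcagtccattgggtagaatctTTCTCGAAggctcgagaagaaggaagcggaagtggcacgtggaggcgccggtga

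Hspa1a held 1 match, 104 bases before its start. The Hspa1b window (chr17:34959239-34959488, minus strand) held the same match at the same distance and differed from that of Hspa1a at 3 of 250 positions, C44T, T47C and T249G, counted from 1 at the 5′ end with the base of Hspa1a first. Hspe1 held 3 matches that overlap in a run of 18 bases, and because Hspe1 and Hspd1 lie head to head on chromosome 1, the same run stood in the Hspd1 window (chr1:55087933-55088182, minus strand) as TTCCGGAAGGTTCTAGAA. Hsph1 had 2 annotated starts, and both windows held the same single match. Neither window of Dnajb1 held these letters, nor did the window of a second Hspd1 start. The letters are a description of sequence, and binding of HSF1 was not measured.

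Hspa1a (chr17:34969190-34972156) and Hspa1b (chr17:34956436-34959238) are near-copies, which matters for counting. Over whole transcripts 58.8% of the 50-base stretches of Hspa1a occurred in Hspa1b without a mismatch. In the last 400 bases, where the reads of a 3′ library lie, 0 of 351 stretches were shared, so reads from there can be assigned. Reads from further upstream cannot always be, and the summed count is therefore given beside the single ones. On GRCm38 the other genes lie at chr8:83608193-83612653 (Dnajb1), chr12:110690605-110702728 (Hsp90aa1), chr9:40800984-40810087 (Hspa8), chr5:149614287-149636376 (Hsph1), chr1:55088132-55091307 (Hspe1) and chr1:55077835-55088243 (Hspd1). The last 2 overlap at their 5′ ends on opposite strands, away from the 3′ ends that were counted.

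Across the 4 libraries 5811 cells were counted, 1048 to 1774 per library, and 5625 of them fell into 5 classes by marker genes. Monocyte/Mφ-like cells numbered 1278 in WT 24 h, 214 in CCR2 KO 24 h, 887 in WT 72 h and 135 in CCR2 KO 72 h, with median depths of 14606, 15871, 14020 and 14236 UMIs. All 14 monocyte/Mφ markers, the genes the class was gated on, were detected in each library. Neutrophil-like cells (187 to 1337 per library) were shallower, at medians of 2064 to 3408 UMIs. Dendritic cell-like cells numbered 30 to 106, the pooled T, NK and innate lymphoid cells (T/NK/ILC-like) 19 to 157 and B cell-like cells 5 to 33. At most 1 cell barcode was shared by any pair of libraries. The CCR2 KO 72 h monocyte/Mφ-like cells stood apart: 58 of 135 (43.0%) were dividing, that is, had UMIs of at least 3 of 8 cell division genes, against 57 of 887 (6.43%) in WT 72 h, and their median mitochondrial share was 5.89% against 4.27%.

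The first question was how the inducible HSP70 genes behaved in monocyte/Mφ-like cells. Hspa1a stood at 63.5 CPM (60.0 to 67.2) in WT 24 h, 107 (96.9 to 119) in CCR2 KO 24 h, 177 (170.2 to 185) in WT 72 h and 26.5 (19.9 to 34.4) in CCR2 KO 72 h. No counting interval overlapped another, but these UMIs sat in few cells, a spread that the intervals leave out. WT 72 h was the highest and CCR2 KO 72 h the lowest library. Hspa1b stood at 32.1 CPM (29.6 to 34.7), 105 (94.3 to 116), 129 (123 to 135) and 15.9 (10.9 to 22.3) in the same order. It placed the libraries in the same order as Hspa1a. The summed count of both genes was 95.6, 212, 306 and 42.3 CPM.

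At 24 h CCR2 KO lay above WT, by a log2 ratio of 0.76 (0.59 to 0.92) for Hspa1a and 1.70 (1.52 to 1.89) for Hspa1b. This excess was not seen in each Mφ state: Arg1 cells at 24 h had 60.9 CPM of Hspa1a in WT but 34.4 in CCR2 KO, or 53.7 and 50.2 as means over cells. By 72 h the sign over the whole class had turned, to -2.75 (-3.16 to -2.36) and -3.02 (-3.56 to -2.52), the lowest ratios of the 8 genes in that comparison. Within WT the ratio of 72 h to 24 h was 1.48 (1.38 to 1.58) for Hspa1a and 2.01 (1.87 to 2.14) for Hspa1b. Within CCR2 KO it was -2.02 (-2.46 to -1.61) and -2.72 (-3.28 to -2.20). Over the class these directions held under every other setting tried, but the sizes did not. Without dividing cells, 2 CCR2 KO cells held 20 and 13 of the 48 Hspa1a UMIs at 72 h. There the CCR2 KO against WT ratio at 72 h was -1.85 for Hspa1a and -2.52 for Hspa1b. Thinned to 1000 UMIs per cell it was -4.85 and -4.12, and without cells over 5% mitochondrial UMIs -5.08 for Hspa1b.

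**Figure D1:**
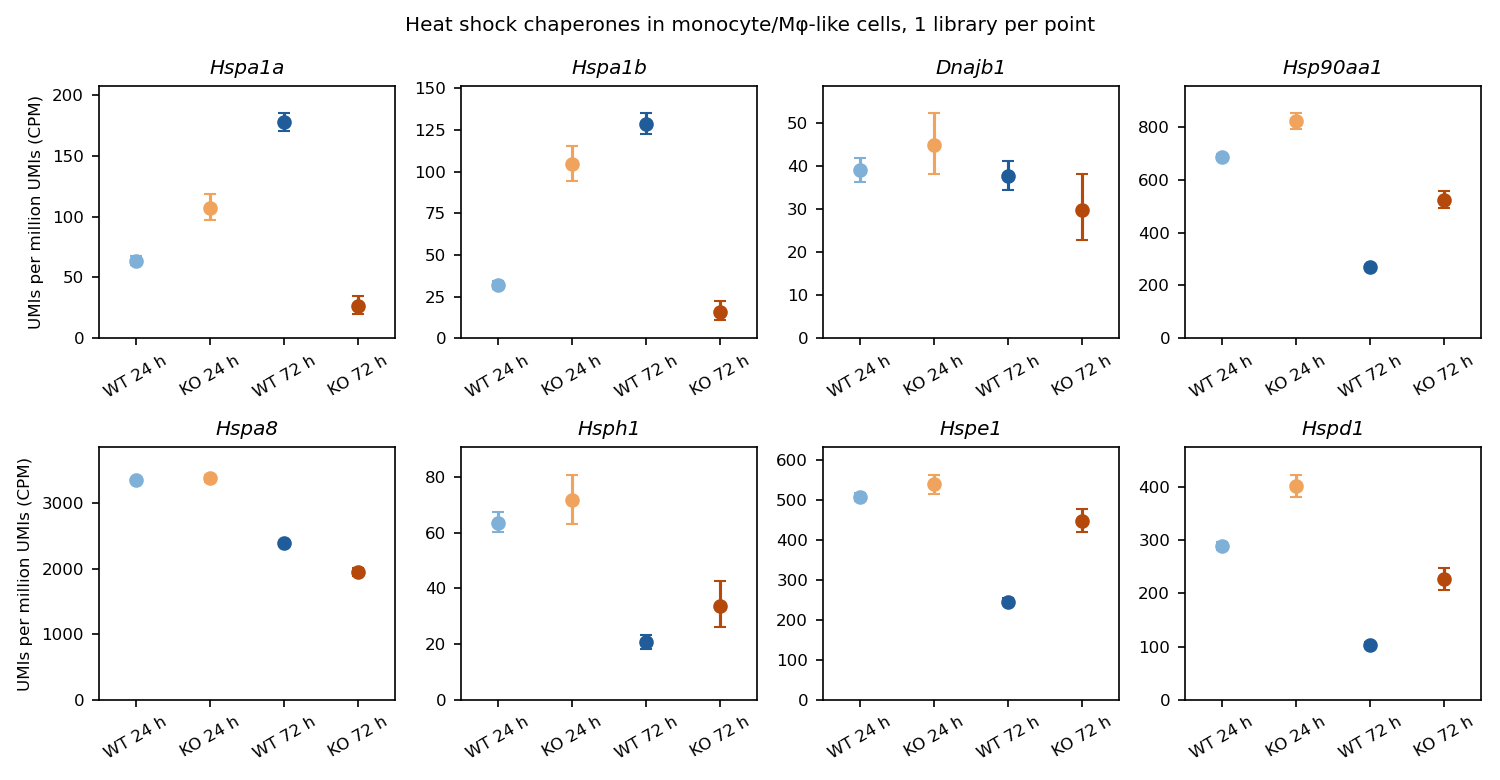
CPM of the 8 genes in monocyte/Mφ-like cells (y axis, from 0), 1 point per library (x axis, KO for CCR2 KO) with its 95% counting interval. Hspa1a and Hspa1b peak in WT 72 h and are lowest in CCR2 KO 72 h, while Hsp90aa1, Hsph1, Hspe1 and Hspd1 are lowest in WT 72 h.

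Dnajb1, the J-domain partner of inducible HSP70, moved little. Its level was 39.0 CPM (36.3 to 41.9) in WT 24 h, 44.8 (38.2 to 52.3) in CCR2 KO 24 h, 37.7 (34.4 to 41.2) in WT 72 h and 29.8 (22.9 to 38.2) in CCR2 KO 72 h. The intervals of all 4 libraries overlapped one another. Its log2 ratios lay between -0.59 and 0.20, and only that of CCR2 KO over time, -0.59 (-1.03 to -0.16), had an interval clear of 0. That ratio turned to 0.27 when each cell was thinned to 1000 UMIs, a random draw that keeps few of the 62 UMIs of CCR2 KO 72 h.

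Hspa8, the constitutive HSP70 that folds newly made proteins, gave the most UMIs of the 8 genes. UMIs count 3′ ends of molecules, so levels of different genes are compared here without a length term. Its level was 3353 CPM (3327 to 3379) in WT 24 h, 3376 (3316 to 3436) in CCR2 KO 24 h, 2399 (2372 to 2426) in WT 72 h and 1954 (1894 to 2015) in CCR2 KO 72 h. The 24 h libraries could not be told apart, at a log2 ratio of 0.01 (-0.02 to 0.04), and both 72 h libraries were lower. The ratio over time was -0.48 in WT and -0.79 in CCR2 KO. CCR2 KO lay below WT at 72 h by a log2 ratio of -0.30, which turned to 0.10 when cells with over 5% mitochondrial UMIs were left out, a step that kept 44 of 135 CCR2 KO cells.

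Hsp90aa1, the inducible cytosolic HSP90, stood at 687 CPM (675 to 699) in WT 24 h, 822 (793 to 852) in CCR2 KO 24 h, 269 (260.5 to 279) in WT 72 h and 524 (494 to 557) in CCR2 KO 72 h. WT 72 h was the lowest library and CCR2 KO 24 h the highest. In WT its log2 ratio over time was -1.35 (-1.40 to -1.30), and CCR2 KO gave -0.65 (-0.75 to -0.55). At 72 h CCR2 KO was higher than WT by 0.96 (0.86 to 1.06), just inside the 2-fold line.

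Hsph1, the HSP110 exchange factor, went the same way at lower counts: 63.6 CPM (60.1 to 67.3) in WT 24 h, 71.7 (63.2 to 80.9) in CCR2 KO 24 h, 20.8 (18.4 to 23.5) in WT 72 h and 33.7 (26.3 to 42.6) in CCR2 KO 72 h. Both 24 h libraries were above both 72 h libraries. Over time its log2 ratio in WT was -1.61 (-1.81 to -1.42), and that in CCR2 KO was -1.09 (-1.49 to -0.70). At 72 h CCR2 KO against WT stood at 0.69 (0.29 to 1.08), but at -0.02 after thinning to 1000 UMIs, where 1.60% and 1.57% of cells held a UMI. Thinning is a random draw and keeps few of the 70 UMIs of CCR2 KO 72 h.

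The mitochondrial chaperonin genes moved as a pair. Hspd1 was at 289 CPM (282 to 297) in WT 24 h, 401 (381 to 423) in CCR2 KO 24 h, 103 (97.3 to 109) in WT 72 h and 226 (206 to 248) in CCR2 KO 72 h. Hspe1 was at 507 (497 to 517), 539 (515 to 563), 245 (237 to 254) and 448 CPM (419.6 to 478). For both genes CCR2 KO 24 h was the highest library and WT 72 h the lowest. Over time in WT the log2 ratio was -1.49 (-1.58 to -1.41) for Hspd1 and -1.05 (-1.11 to -0.99) for Hspe1. In CCR2 KO it was -0.83 for Hspd1 and -0.27 for Hspe1, and that of Hspe1 turned to 0.18 after thinning. CCR2 KO exceeded WT at 72 h by 1.14 (0.98 to 1.29) for Hspd1 and 0.87 (0.76 to 0.98) for Hspe1. The Hspd1 ratio was 0.97 with TMM factors and 0.84 without dividing cells, under the 2-fold line in both cases. At 24 h the ratio was 0.47 for Hspd1 and 0.09 (0.02 to 0.16) for Hspe1, the latter at 0 to 2 decimals with TMM factors.

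**Figure D2:**
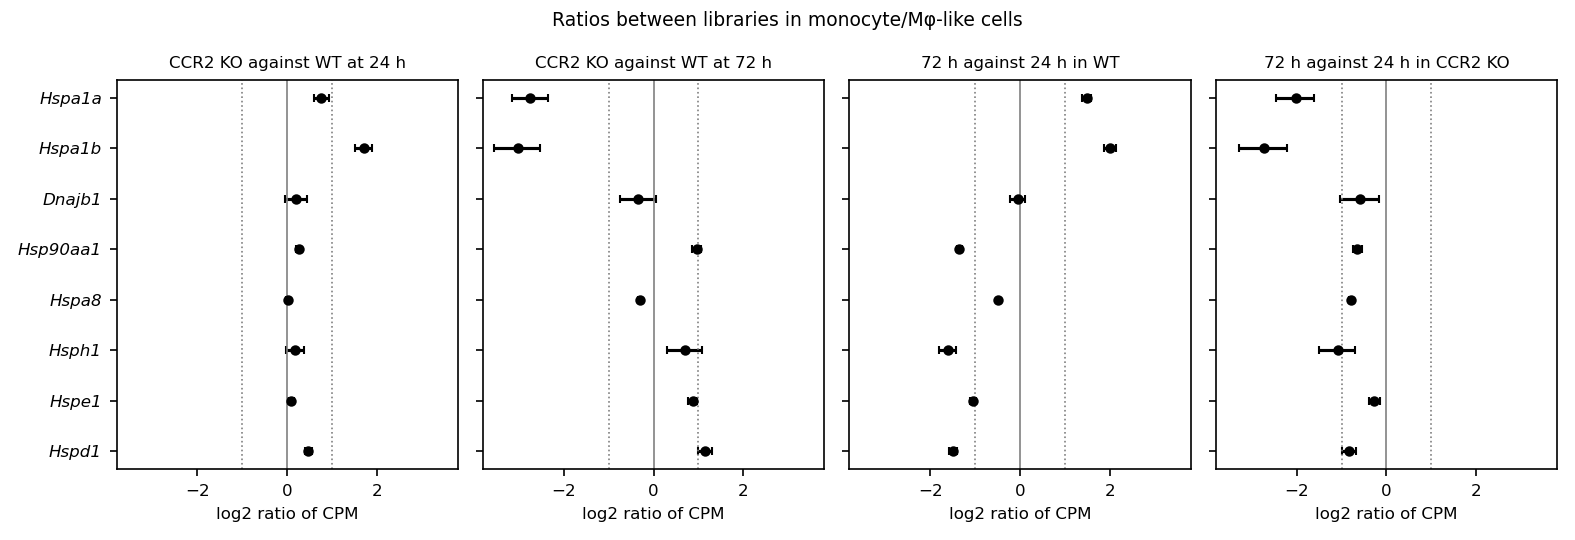
Log2 ratios of CPM between libraries in monocyte/Mφ-like cells (x axis) for the 8 genes (y axis), with 95% counting intervals. Dotted lines mark 2-fold. In WT over time Hspa1a and Hspa1b lie right of the upper line and 4 genes left of the lower line, and in CCR2 KO against WT at 72 h Hspa1a and Hspa1b lie left of the lower line and Hspd1 alone right of the upper one.

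The counts past 2-fold were read against all genes with at least 20 CPM in 1 of the 2 libraries compared. In CCR2 KO against WT at 24 h 1 of 8 members, Hspa1b, was at least 2-fold higher and 0 were lower, where 2.75% and 1.26% of 5858 genes were. At 72 h 1 member (Hspd1) was higher and 2 (Hspa1a and Hspa1b) were lower, against 5.31% and 2.57% of 6424 genes. In WT from 24 h to 72 h 2 members were higher and 4 lower, against 6.9% and 6.24% of 6204 genes. In CCR2 KO over time 0 members were higher and 3 (Hspa1a, Hspa1b and Hsph1) lower, against 10.3% and 4.72% of 6434 genes. The median log2 ratio of the 8 members was 0.23, 0.20, -0.77 and -0.81 in these comparisons, and that of all these genes -0.07, 0.12, -0.04 and 0.14. Past 1.5-fold in either direction were 2, 6, 6 and 7 of the 8 members, against 11.8%, 24.3%, 33.3% and 35.2% of all these genes. TMM factors lowered every ratio by 0.09, 0.17, 0.15 and 0.24 in turn. The mean over cells and thinning put Hspe1 in WT over time at -0.97, short of 2-fold.

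The rest of the chaperone network was taken from lists chosen for their function. Of all genes that passed the level filter, 6.9% were at least 2-fold higher and 6.24% lower over time in WT. Over time in CCR2 KO these shares were 10.3% and 4.72%. In CCR2 KO against WT they were 2.75% and 1.26% at 24 h and 5.31% and 2.57% at 72 h. The counts of each list below are to be read beside these shares. Among 15 inducible cochaperones, 10 passed the level filter. From 24 h to 72 h in WT 3 of these were at least 2-fold lower and none higher, at a median of -0.81: Cacybp at -1.35, Stip1, the HSP70 to HSP90 adaptor, at -1.06, and Fkbp4, an HSP90-bound immunophilin, at -1.004. In CCR2 KO over time 2 of 10 were lower, Ubb (polyubiquitin) at -1.14 and the J-domain gene Dnaja1 at -1.12. In CCR2 KO against WT none of the 10 passed 2-fold at either time, with medians of 0.17 at 24 h and 0.37 at 72 h.

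Of 11 other cytosolic chaperones, which all passed the level filter, 2 were at least 2-fold lower over time in WT: the constitutive HSP90 gene Hsp90ab1 at -1.09 and the HSP110 gene Hspa4 at -1.01. For TRiC, the cytosolic chaperonin, 7 of 8 genes were counted and passed, and 2 were lower in WT over time, Cct3 at -1.46 and Cct8 at -1.38. Of 8 mitochondrial chaperones and proteases, Grpel1 (-1.11) and Hspa9, the mitochondrial HSP70 (-1.07), were lower in WT over time. Hspa9 was higher in CCR2 KO than in WT at 72 h, at 1.21, while Clpp was lower over time in CCR2 KO, at -1.05.

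The endoplasmic reticulum chaperones had the most genes past the line. In WT over time 10 of 15 were at least 2-fold lower, against 6.24% of all genes, at a median of -1.23. They were led by Creld2 (-1.80), the disulfide isomerase Pdia4 (-1.42), the HSP70 of this compartment Hspa5 (-1.42) and Manf (-1.37). At 72 h 1 of 15, its HSP90 gene Hsp90b1, was higher in CCR2 KO than in WT, at 1.20, with a list median of 0.44. Over time in CCR2 KO 0 of 15 passed 2-fold, with a median of -0.44. Of the heat shock factors only Hsf1, the main activator of the response, passed the level filter, and its ratios lay between -0.38 and 0.29.

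Immediate early genes, transcription factors and feedback genes that answer within minutes to many stimuli, moved with Hspa1a and Hspa1b between libraries. Their 13 genes, all detected in each library, summed to 6459.9 CPM in WT 24 h, 7012 in CCR2 KO 24 h, 8339 in WT 72 h and 3710.2 in CCR2 KO 72 h. In CCR2 KO against WT at 72 h 9 of 13 were at least 2-fold lower, against 2.57% of all genes, at a median of -1.30. They were led by Atf3 (-1.73), Fosb (-1.72), Btg2 (-1.69) and Nr4a1 (-1.52). Over time in CCR2 KO 7 of 13 were lower, against 4.72% of all genes, led by Atf3 (-2.04), Ier3 (-1.73), Btg2 (-1.35) and Egr1 (-1.26). In WT over time 1 was higher, Nr4a1 at 1.10, and at 24 h Egr1 was higher in CCR2 KO at 1.32. Their part in the HSP70 pattern was not tested.

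**Figure D3:**
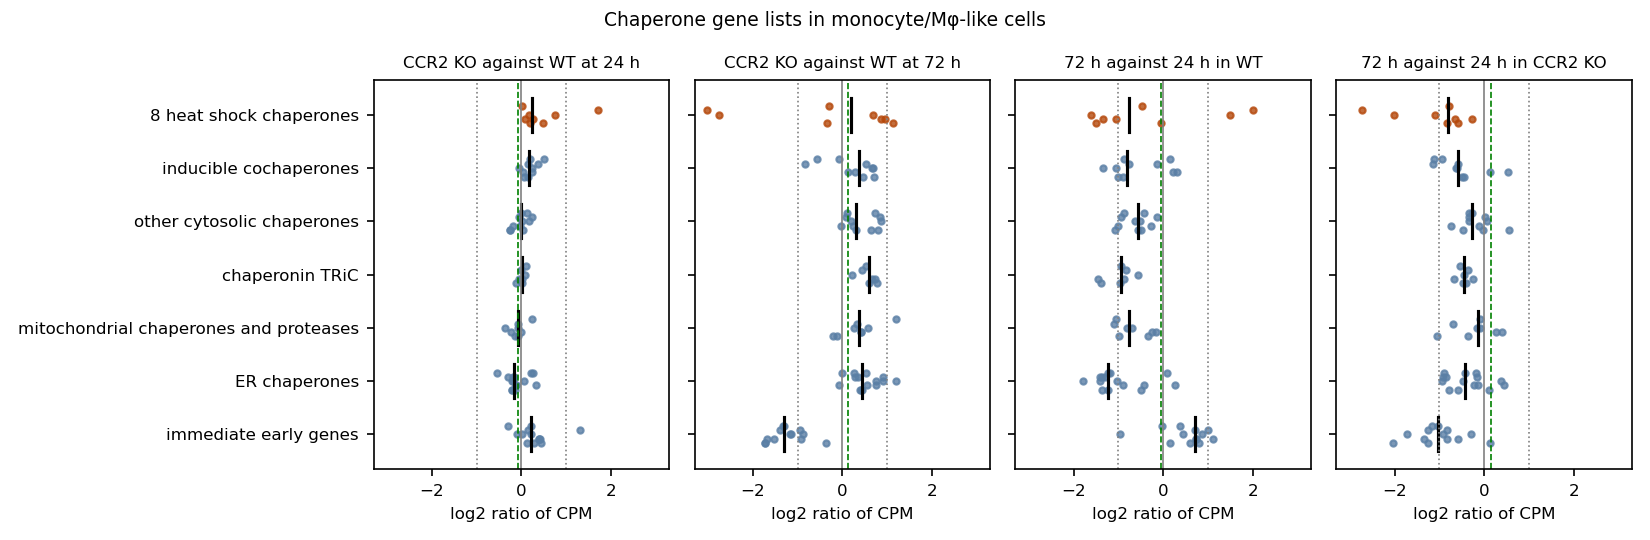
Log2 ratios of CPM in monocyte/Mφ-like cells (x axis) for the genes of each list (y axis) that passed the level filter, 1 point per gene, with list medians as black bars, the median of all genes as a green dashed line and 2-fold as dotted lines. In WT over time every chaperone list has its median below that of all genes, and the immediate early genes have theirs above it.

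Cell division genes also moved with the libraries. At 72 h 8 of 8 were at least 2-fold higher in CCR2 KO than in WT, against 5.31% of all genes. They were led by Pclaf (2.93), Ccnb2 (2.57), Stmn1 (2.50) and Birc5 (2.46). Over time in WT 6 of 6 that passed the level filter were higher, led by Ube2c (4.58), Birc5 (4.11), Pclaf (3.27) and Stmn1 (2.78), in CCR2 KO 8 of 8 were, and at 24 h Stmn1 stood at 1.36. Within the CCR2 KO 72 h library dividing monocyte/Mφ-like cells held 663 CPM of Hsp90aa1 and 269.9 of Hspd1, and the 77 other cells 359.7 and 174. For Hspa1a the dividing cells held 6.19 CPM (7 UMIs) and the others 50.6 (48 UMIs), but 2 of these other cells held 20 and 13 of the 48. As means over cells the Hspa1a values were 4.91 and 31.0 CPM. In WT 72 h the same split gave 414 and 254 CPM for Hsp90aa1 and 136 and 182 for Hspa1a. With dividing cells left out, CCR2 KO over time had 5 members past 2-fold in place of 3, Hsp90aa1 (-1.16) and Hspd1 (-1.17) being added.

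The next question was whether the change over time in WT was seen among cells assigned to the same Mφ state list. Cells were assigned to the state list with their highest score, and only states with at least 30 cells in a library are given. Among Ly6c monocyte cells Hspa1a was at 68.5 CPM in WT 24 h (267 cells) and 154 in WT 72 h (35 cells), and Hsp90aa1 at 508 and 189.5. In Arg1 cells Hspa1a was at 60.9 (630 cells) and 146 (78 cells), and Hsp90aa1 at 729.8 and 336. In Cd206 cells, the Mφs expressing the mannose receptor, Hspa1a was at 30.4 (53 cells) and 124 (417 cells), and Hsp90aa1 at 634 and 220.2. Cells under all 3 state names thus had more Hspa1a and less Hsp90aa1 at 72 h. Cells under the same name differed between the times in the markers of their own list. Arg1 itself was at 2785 CPM in Arg1 cells of WT 24 h and 665 in those of WT 72 h. In Ly6c monocyte cells Chil3 was at 3836 and 990 CPM, but Plac8 at 3365 and 3801. In Cd206 cells Selenop was at 1739 and 4491 CPM. Comparing genotypes at 72 h, Cd206 cells held 124 CPM of Hspa1a in WT and 35.3 in CCR2 KO (38 cells), and Cx3cr1 cells held 247 in WT (128 cells) and 10.3 in CCR2 KO (34 cells). The paper found no Cd206+ Mφs in CCR2 KO mice during resolution, so a shared name need not mean the same cells. Those 38 cells had less Selenop (2059 CPM), Trem2 (291) and Igf1 (137) than the WT Cd206 cells (4491, 672 and 176). They had more Mrc1 (1657 against 1053 CPM) and Stab1 (964 against 650). Whether cells of the same kind were compared was not tested. Comparing genotypes at 24 h, WT Arg1 cells held 60.9 CPM of Hspa1a (56.2 to 65.8), while the 64 CCR2 KO ones held 34.4 (24.7 to 46.7), and of Hspa1b 25.1 (22.1 to 28.4) and 11.7 (6.42 to 19.7). CCR2 KO was thus the lower genotype in this state by pooled CPM, from 41 Hspa1a and 14 Hspa1b UMIs. As means over cells WT and CCR2 KO lay closer, at 53.7 and 50.2 CPM for Hspa1a and 26.2 and 21.6 for Hspa1b. The CCR2 KO excess of the class as a whole was not seen in this state by pooled CPM or by means over cells. In Fabp5 cells (191 in WT and 43 in CCR2 KO) Hspa1a was at 45.3 and 58.7 CPM and Hspa1b at 28.7 and 18.1, with intervals that overlapped. Cells of no state (112 and 42) held 112 and 118 CPM of Hspa1a and 42.3 and 210.1 of Hspa1b. The 33 Cx3cr1 cells of CCR2 KO 24 h, a state with 19 cells in WT, had 296 CPM of Hspa1a and held 161 of the 388 Hspa1a UMIs and 173 of the 378 Hspa1b UMIs of their class. At 72 h the Timp2 cells of WT 72 h had 248 (111 cells).

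UMIs of the inducible genes sat in few cells. The top 10% of monocyte/Mφ-like cells held 85.9% of Hspa1a UMIs in WT 24 h, 81.4% in CCR2 KO 24 h, 57.3% in WT 72 h and 94.5% in CCR2 KO 72 h. For Hspa8 the same share was 26.1% to 37.9%, and for Hsp90aa1 28.8% to 43.5%. Such shares rise as counts fall, and in CCR2 KO 72 h only 17 of 135 cells held a Hspa1a UMI. Hsph1, a sparser gene than Hspa8 and Hsp90aa1, had 42.1%, 41.7%, 57.0% and 60% in the same order of libraries. In WT 72 h Hsph1 was thus as concentrated as Hspa1a, and in the other libraries less so. In CCR2 KO 72 h 1 cell of 135 held 20 of the 55 Hspa1a UMIs, so this low level rests on few cells. Cells with at least 1 UMI of Hspa1a or Hspa1b made up 29.3%, 44.9%, 53.7% and 20.7% of the class at 24 h in WT and CCR2 KO and then at 72 h in WT and CCR2 KO. Thinned to 1000 UMIs per cell, which left out 4 to 10 cells per library, the shares were 6.77%, 11.4%, 21.4% and 1.57%, against 1.09% to 1.40% of neutrophil-like cells (2.60% to 3.44% unthinned, with 6 to 28 cells left out). The thinned share of CCR2 KO 72 h is near that of neutrophil-like cells, but it comes from few cells in a random draw. Pooled, Hspa1a and Hspa1b summed to 42.3 CPM in that library and to 8.95 to 20.2 CPM in neutrophil-like cells. No class is known to lack these genes altogether.

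**Figure D4:**
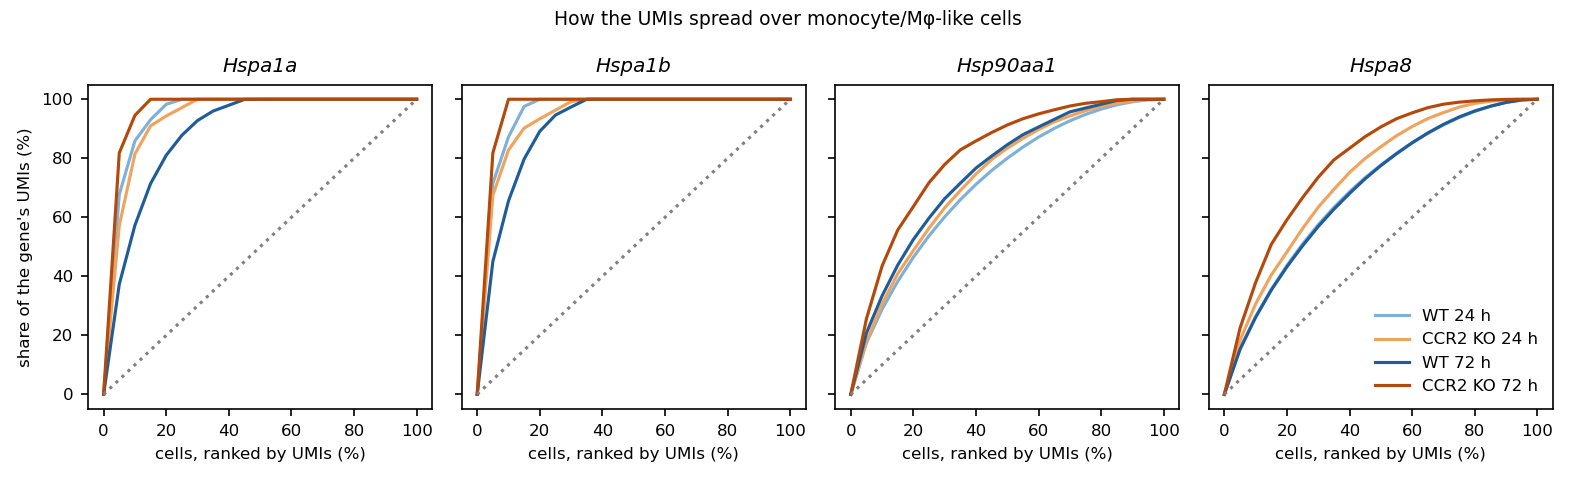
Share of a gene's UMIs (y axis, %) held by the monocyte/Mφ-like cells with the most UMIs of it (x axis, % of cells), 1 line per library, with an even spread as the dotted line. Hspa1a and Hspa1b curves rise steeply and flatten early, least so in WT 72 h, whereas those of Hsp90aa1 and Hspa8 rise slowly.

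Cells with 10 or more UMIs of Hspa1a and Hspa1b together numbered 45 of 1278 in WT 24 h, 21 of 214 in CCR2 KO 24 h, 134 of 887 in WT 72 h and 2 of 135 in CCR2 KO 72 h. Leaving aside the library with 2 such cells, the other 6 members were higher in these cells than in the remaining cells of their library in 18 of 18 comparisons, and in 17 the counting interval lay above 0. Of all genes with at least 20 CPM, 57.1% in WT 24 h, 60.1% in CCR2 KO 24 h and 54.4% in WT 72 h were higher in the same cells, and 9.8%, 14.7% and 14.1% had an interval above 0. These genes were not matched to the members for level, and intervals narrow as counts rise. Hspa8 in WT 72 h, for example, had an interval above 0 at a log2 ratio of 0.15 (0.11 to 0.19). The shares with an interval above 0 are thus not a like comparison. Hsph1 was at 113 against 61.3 CPM in WT 24 h, 137 against 62.7 in CCR2 KO 24 h and 31.9 against 18.4 in WT 72 h. Dnajb1 was at 82.6 against 36.9 CPM in WT 24 h, 77.5 against 40.3 in CCR2 KO 24 h and 43.9 against 36.4 in WT 72 h. Within these 3 libraries the members thus leaned the same way, although between the WT libraries the HSP70 genes and 4 of the others parted. Summed immediate early genes were lower in the same cells in all 4 libraries, for example 4698 against 7331 CPM in CCR2 KO 24 h and 5706 against 6497 in WT 24 h. The cells were also deeper, at 18195 against 14569 median UMIs in WT 24 h, and the part of depth was not tested.

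Over single cells the closest pair was Hspa1a and Hspa1b, with a Pearson r of 0.54 in WT 24 h, 0.59 in CCR2 KO 24 h, 0.55 in WT 72 h and 0.23 in CCR2 KO 72 h, on log-scaled values of cells that share a library. Hspe1 and Hspd1 followed at 0.44, 0.44, 0.14 and 0.37. Sparse counts hold such values down, and they are a description only.

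Among classes, neutrophil-like cells had the least of most members. Over 4 libraries Hspa1a ranged from 2.13 to 7.14 CPM in neutrophil-like cells, from 26.5 to 177 in monocyte/Mφ-like cells and from 51.0 to 145 in dendritic cell-like cells. The neutrophil range lay below both others, which overlapped. Hspa8 ranged from 427 to 876 CPM in neutrophil-like, 1954 to 3376 in monocyte/Mφ-like and 2666 to 4282 in dendritic cell-like cells, with the same overlap. Hsph1 (1.34 to 4.26 CPM), Hspe1 (13.4 to 62.7) and Hspd1 (13.4 to 55.5) in neutrophil-like cells also lay below the lowest library of every other class of at least 30 cells. Hsp90aa1 reached 164 to 255 CPM there, against 269 to 822 in monocyte/Mφ-like cells. Dnajb1 was the exception: 28.2 to 87.3 CPM in neutrophil-like, 29.8 to 44.8 in monocyte/Mφ-like and 31.0 to 50.6 in dendritic cell-like cells, ranges that overlap.

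**Figure D5:**
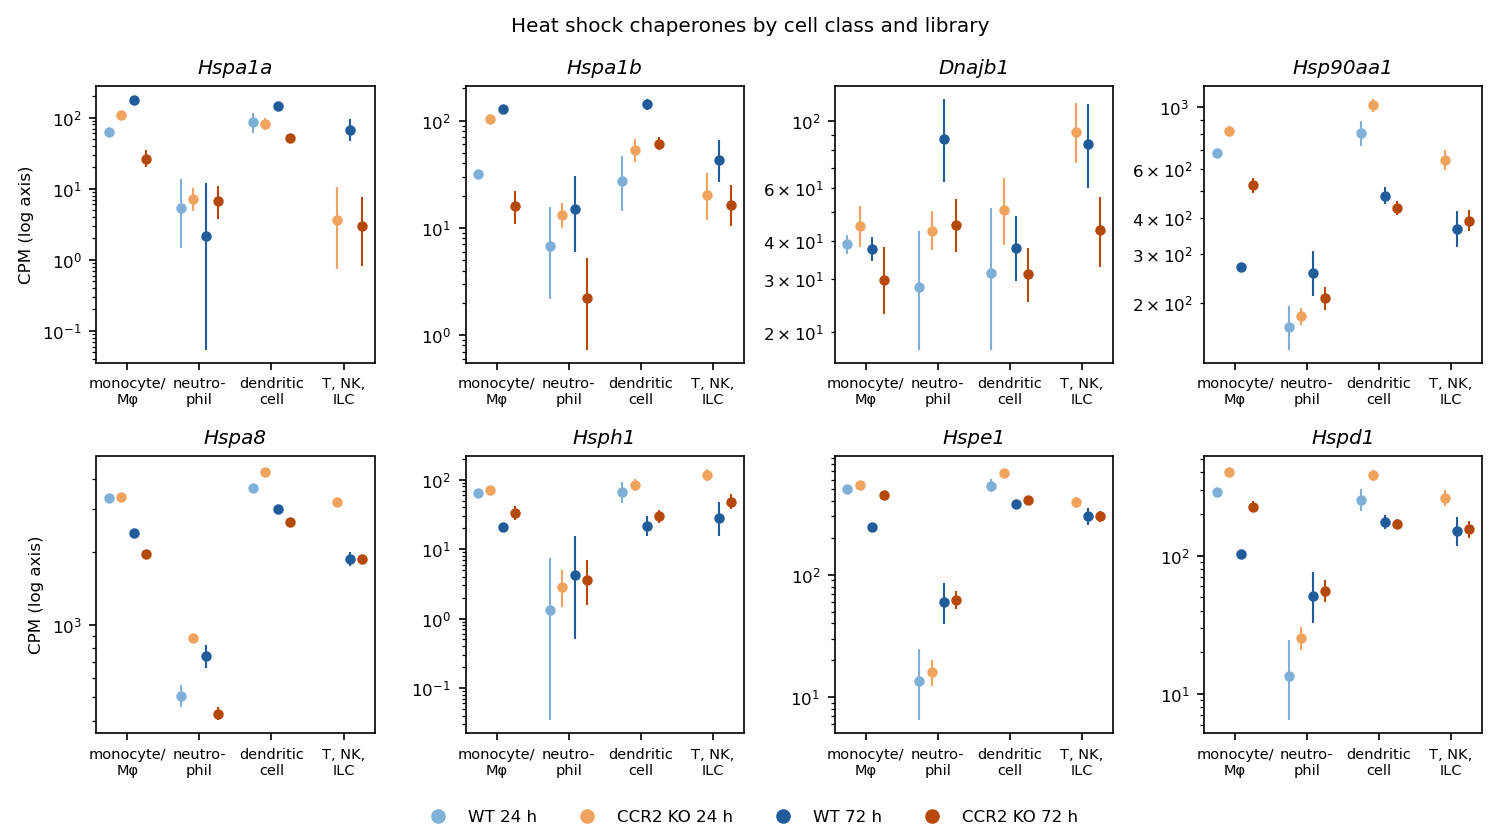
CPM of the 8 genes (y axis, log scale) in 4 cell classes (x axis), 1 point per library of at least 30 cells with its 95% counting interval. Neutrophil-like cells lie below the other classes for Hsp90aa1, Hspa8, Hsph1, Hspe1 and Hspd1, and Hspa1a is low in T/NK/ILC-like cells except in WT 72 h.

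T/NK/ILC-like cells had Hspa8, Hsp90aa1, Hspe1 and Hspd1 within or near the monocyte/Mφ range but little Hspa1a. Its level there was 3.58 CPM (3 UMIs) in CCR2 KO 24 h, 67.3 (33 UMIs) in WT 72 h and 2.99 (4 UMIs) in CCR2 KO 72 h, and in WT 72 h 17 of the 33 UMIs came from 1 cell. Hsph1 reached 117 CPM (94.96 to 143) in CCR2 KO 24 h and Dnajb1 91.9 CPM (72.5 to 115), each above the monocyte/Mφ-like cells of that library. B cell-like cells had 0 UMIs of Hspa1a and of Hspa1b in the 33 cells of CCR2 KO 24 h, where 3 counts would be 14.7 CPM, beside 1980.3 CPM of Hspa8.

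Dendritic cell-like cells repeated part of the monocyte/Mφ pattern. Hspa1a was at 85.4 CPM in WT 24 h, 82.4 in CCR2 KO 24 h, 145 in WT 72 h and 51.0 in CCR2 KO 72 h, again highest in WT 72 h and lowest in CCR2 KO 72 h. Hspa1b was at 27.1, 53.1, 142 and 61.0 CPM. At 72 h the log2 ratio of CCR2 KO to WT was -1.503 (-1.799 to -1.210) for Hspa1a and -1.215 (-1.496 to -0.936) for Hspa1b. For Hsp90aa1 it was -0.15, for Hspd1 -0.04 (-0.25 to 0.17) and for Hspe1 0.11 (-0.03 to 0.25), so the excess of these genes in CCR2 KO monocyte/Mφ-like cells was not seen. In CCR2 KO 72 h 1 of 106 cells held 66 of the 158 Hspa1a UMIs. The 13 immediate early genes summed to 5794 CPM in WT 72 h and 3590.3 in CCR2 KO 72 h, and their part was not tested.

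In neutrophil-like cells the mitochondrial pair was higher at 72 h than at 24 h, where it was lower in monocyte/Mφ-like cells. Hspe1 was at 13.4 CPM in WT 24 h, 16.0 in CCR2 KO 24 h, 59.6 in WT 72 h and 62.7 in CCR2 KO 72 h. Hspd1 was at 13.4, 25.2, 51.1 and 55.5 CPM. Both 72 h libraries lay above both 24 h libraries for each gene. The log2 ratio over time for Hspe1 in WT was 2.15 (1.07 to 3.36), and CCR2 KO gave 1.97 (1.54 to 2.42). Cells with a UMI of Siglecf, a lectin of eosinophils and of some tissue neutrophils, numbered 24 of 304 in WT 24 h, 191 of 1337 in CCR2 KO 24 h, 83 of 187 in WT 72 h and 286 of 578 in CCR2 KO 72 h. In CCR2 KO 72 h Hspd1 was at 81.9 CPM in these cells and 33.1 in the others, and Hspe1 at 97.5 and 33.1. In CCR2 KO 24 h the Hspd1 values were 39.7 and 22.7. In WT 72 h Hspd1 was at 104 CPM (21 UMIs) with and 11.2 (3 UMIs) without a Siglecf UMI, and in WT 24 h at 36.3 (2 UMIs) and 11.6 (8 UMIs). The higher Hspd1 of WT 72 h was thus not seen in cells without a Siglecf UMI, at few counts, whereas their Hspe1 was at 13.05 CPM in WT 24 h and 52.4 in WT 72 h.

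To place each member among all genes, its pattern over the 16 combinations of class and library with at least 30 cells was compared with that of 3242 genes by Pearson r of log2(CPM + 10). The points share libraries and differ widely in depth. Of them 4 are neutrophil-like, the class with the least of most members, so r mixes differences between classes with those between libraries. Hsp90aa1, Hspa8, Hsph1, Hspe1 and Hspd1 followed one another at 0.87 to 0.97, and Hspa1a and Hspa1b followed each other at 0.89. Dnajb1 was unlike every other member, at -0.13 to 0.08. Among genes with a mean of at least 50 CPM over these points, which leaves out Hspa1b at 42.6, those most like Hspa1a were Klf4 (0.88), Dnajb14 (0.86) and Stard3nl (0.85), and those most like Hspa1b, after Hspa1a, were Cuedc2 (0.81) and Tmed3 (0.78). Hsph1 was closest to 3 cochaperones of HSP90, Chordc1 (0.97), Stip1 (0.94) and Fkbp4 (0.93). Hsp90aa1 was closest to Hspd1 (0.96), the HSP90 cochaperone Ptges3 (0.95) and Hspa4 (0.95). Hspe1 lay nearest to the TRiC gene Tcp1 (0.99), Hsp90ab1 (0.99) and Glrx3 (0.99), and Hspd1 to Gnl3 (0.99), Eif2s2 (0.98) and Cct3 (0.97). Hspa8 was nearest to Manf (0.97), Calr (0.96) and Ybx3 (0.96), and Dnajb1 to Tiprl (0.85), Ccdc59 (0.83) and Akirin1 (0.81). With log2(CPM + 1) none of the 3 genes named for Hspa1a and 1 of those for Hsph1 stayed among the closest 3.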

How the data were processed

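Single-cell 3′ libraries (10x Genomics) of CD45+ cells were made by the authors, 1 per group. Per the submitters' processing notes and the study's methods, reads were aligned to mm10 with Cell Ranger 3.0.2, and cells with under 200 genes or over 10% mitochondrial UMIs were removed in Seurat. The deposited values were raw UMI counts per gene and cell. The annotation release and any doublet removal by the authors are not given in the sources used here.

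Cells were scored against 12 marker lists and put in the class of the highest score where at least 3 of its markers were detected. Cells whose second class reached 0.6 of the top score were left out as possible doublets, and no doublet caller was run. T, NK and innate lymphoid cells were pooled. The gate rule was set after the data were seen, and the members and gene lists were chosen with earlier results of these data known. Counts were summed per class and library and given per 1000000 UMIs (CPM), for classes of at least 30 cells. Genes with at least 20 CPM in 1 of the libraries compared were set against a line of 2-fold. With 1 library per group no model was fitted and no p-value is given. Levels carry exact Poisson intervals, ratios exact conditional binomial intervals and shares Clopper-Pearson intervals, at 95%. To compare shares of cells across depths, each cell was thinned to 1000 UMIs in a single random draw. Genes named beside the members were those past 2-fold, up to 4 a list, and the 3 genes most like each member. Alternatives were TMM factors, the mean over cells, thinning, UMIs outside mitochondrial and ribosomal protein genes as the total, a stricter gate, possible doublets kept, a mitochondrial limit of 5%, the top 1% of cells left out, Hspa1a and Hspa1b summed, log2(CPM + 1), no level minimum and a line of 1.5-fold. Leaving out dividing cells and cells under 5000 UMIs was added after seeing the data. Python 3.11.15, numpy 2.4.6, scipy 1.17.1, pandas 2.3.3, R 4.3.3 and edgeR 4.0.16 (for TMM factors) were used, and the ratio and interval code was tested on simulated data. Library totals were 9736725 to 21206308 UMIs.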

Additional observations from a re-analysis of the deposited data

Results flagged for a closer look

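Some members stood in opposite directions in both genotypes or at both times, with counting intervals on opposite sides of 0. The share of all genes that meet this rule is not given, so these members cannot be called unusual by it. Counting intervals are narrow for genes with many UMIs, so small ratios can also meet it. With 1 library per group none of these differences between effects was tested, and library and group cannot be told apart.

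In monocyte/Mφ-like cells the log2 ratio of CCR2 KO to WT was 0.76 at 24 h and -2.75 at 72 h for Hspa1a, and 1.70 and -3.02 for Hspa1b. Read over time, Hspa1a stood at 1.48 in WT and -2.02 in CCR2 KO, and Hspa1b at 2.01 and -2.72. The excess in CCR2 KO at 24 h was not seen in Arg1 cells, which had 60.9 CPM of Hspa1a in WT but 34.4 in CCR2 KO, or 53.7 and 50.2 as means over cells. The other 6 members did not change sides in this way in these cells.

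In dendritic cell-like cells Hspa1a over time stood at 0.76 in WT and -0.69 in CCR2 KO. The ratio of CCR2 KO to WT at 24 h and 72 h was 0.97 and -1.22 for Hspa1b, 0.33 and -0.15 for Hsp90aa1 and 0.23 and -0.17 for Hspa8.

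In neutrophil-like cells Hspa8 was the gene that changed sides. CCR2 KO against WT stood at 0.79 at 24 h and -0.79 at 72 h, and 72 h against 24 h at 0.55 in WT and -1.04 in CCR2 KO. Its levels were 506 and 876 CPM in WT and CCR2 KO at 24 h, and 739 and 427 CPM at 72 h.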

How the results depend on the processing

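Of 328 ratios recomputed under other settings, 233 stayed within the counting interval, 90 moved beyond it and 5 changed sign. TMM factors put Hspe1 in CCR2 KO against WT at 24 h at -0.00075. Thinning to 1000 UMIs put Hsph1 in CCR2 KO against WT at 72 h at -0.020, and Dnajb1 and Hspe1 over time in CCR2 KO at 0.27 and 0.18. It is a single random draw, and it keeps few UMIs of Hsph1 and Dnajb1 in CCR2 KO 72 h. Leaving out cells over 5% mitochondrial UMIs put Hspa8 in CCR2 KO against WT at 72 h at 0.10. The cause was not tested. At 1.5-fold the members past the line were 2 in place of 1 at 24 h and 6 in place of 3 at 72 h for CCR2 KO against WT, and 7 in place of 3 over time in CCR2 KO, where 11.8%, 24.3% and 35.2% of all genes were past that line. At 2-fold over time in CCR2 KO, TMM factors gave 5 in place of 3, adding Hspa8 (-1.03) and Hspd1 (-1.06). Leaving out dividing cells, chosen after seeing the data, also gave 5. The share of all genes past 2-fold is not given under these settings. Thinning put Hspa1a and Hspa1b in CCR2 KO against WT at 72 h at -4.85 and -4.12, from few UMIs. With no level minimum 28.2% to 34.2% of all genes passed 2-fold, against 4.01% to 15.01%. Thinning kept 17 of 32 class orders. No paired analysis was possible because each group had 1 library, and for the same reason no replicate could be left out. The class had 135 cells in CCR2 KO 72 h, which limits every comparison that uses them.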

Other observations

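The other chaperone lists were also compared between classes. Summed TRiC genes stood at 156 CPM in WT 24 h, 203 in CCR2 KO 24 h, 496 in WT 72 h and 497 in CCR2 KO 72 h in neutrophil-like cells, and at 2011, 2003, 1015 and 1479 CPM in monocyte/Mφ-like cells. Both 72 h libraries were thus the higher ones in neutrophil-like cells and the lower ones in monocyte/Mφ-like cells, as for Hspd1 and Hspe1. The summed mitochondrial chaperones and proteases were at 83.2, 117, 258 and 243 CPM in neutrophil-like cells in the same order. Immediate early genes were highest in neutrophil-like cells, at 22556 to 27777 CPM, the class with little Hspa1a, against 3710.2 to 8339 CPM in monocyte/Mφ-like cells.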
